A study of Rattus norvegicus with 6 samples.

Results

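The genes described here are 10 core genes of transforming growth factor beta (TGF-beta) signalling, among the 30001 features of an RNA sequencing table from cultured rat heart muscle cells. They are the 3 ligand genes Tgfb1, Tgfb2 and Tgfb3, the latency gene Ltbp1, the receptor genes Tgfbr1, Tgfbr2 and Tgfbr3, and Smad2, Smad3 and Smad7. They were chosen by name, and all 10 had a row in the table. The study compared 3 libraries treated with a short hairpin RNA against Decr1 (sh-Decr1) with 3 libraries that received a non-targeting control (NC). All 6 came from neonatal ventricular myocytes of Sprague-Dawley rats in their first days of life, kept in medium with 10% serum for 24 h before the experiment. The targeted gene, Decr1, codes for a mitochondrial reductase that helps to break down unsaturated fatty acids. The sources used here do not give how the hairpin was delivered or how long before harvest. By their labels the 6 libraries share batch 1.

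TGF-beta ligands are secreted in a latent form, bound to their own propeptide and, through it, to a latent TGF-beta binding protein that anchors the complex in the matrix. Once released, a ligand dimer joins the type II receptor to the type I receptor, which phosphorylates SMAD2 and SMAD3. With SMAD4 these enter the nucleus and switch on matrix and feedback genes. In the heart the pathway is best known for turning fibroblasts into matrix-producing myofibroblasts, and it also acts on heart muscle cells.

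Values are FPKM, fragments scaled by gene length and library size, so levels can be compared between genes. Each log2 fold change is the knockdown mean minus the control mean of log2(FPKM + 1), a scale that shrinks the changes of low genes. It is given with its standard error (SE) from limma, and a gene was called at a Benjamini-Hochberg adjusted p under 0.05. The libraries held 35290664 to 37413240 fragments in the knockdown and 39659092 to 40108670 in the controls. Decr1 stood at 3.33, 1.24 and 2.36 FPKM in the knockdown libraries, against 43.6, 44.3 and 42.8 FPKM in the controls, so that 5.30% of the control mean remained. Nothing in the labels ties the libraries to separate cultures or animals, and p-values therefore reflect the spread between these samples alone, which may be technical.

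The knockdown libraries held less transcript of 9 of the 10 genes and more of Tgfb2. Tgfb3 and the 3 receptor genes fell to between 27.7% and 46.6% of the control mean, and Smad3 to 46.8%. Tgfb1, Ltbp1, Smad2 and Smad7 fell by less, to between 82.6% and 89.6% of the control mean. All 10 genes passed the filter on low values and all 10 were called, 9 lower and 1 higher (limma, Benjamini-Hochberg adjusted). Change was broad in these libraries, and 80.8% of the 11975 features tested were called, 32.4% lower and 48.4% higher. The median log2 fold change of the 10 genes was -0.60, beside 0.14 for all features tested. The groups overlapped for none of the 10 genes, and they did not overlap for 82.3% of all features tested, 33% with the knockdown lower and 49.2% with it higher. Permuting the FPKM of each of the 10 genes over the libraries (exact test, two-sided) gave p = 0.1, which is as low as 3 against 3 can go.

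**Figure D1:**
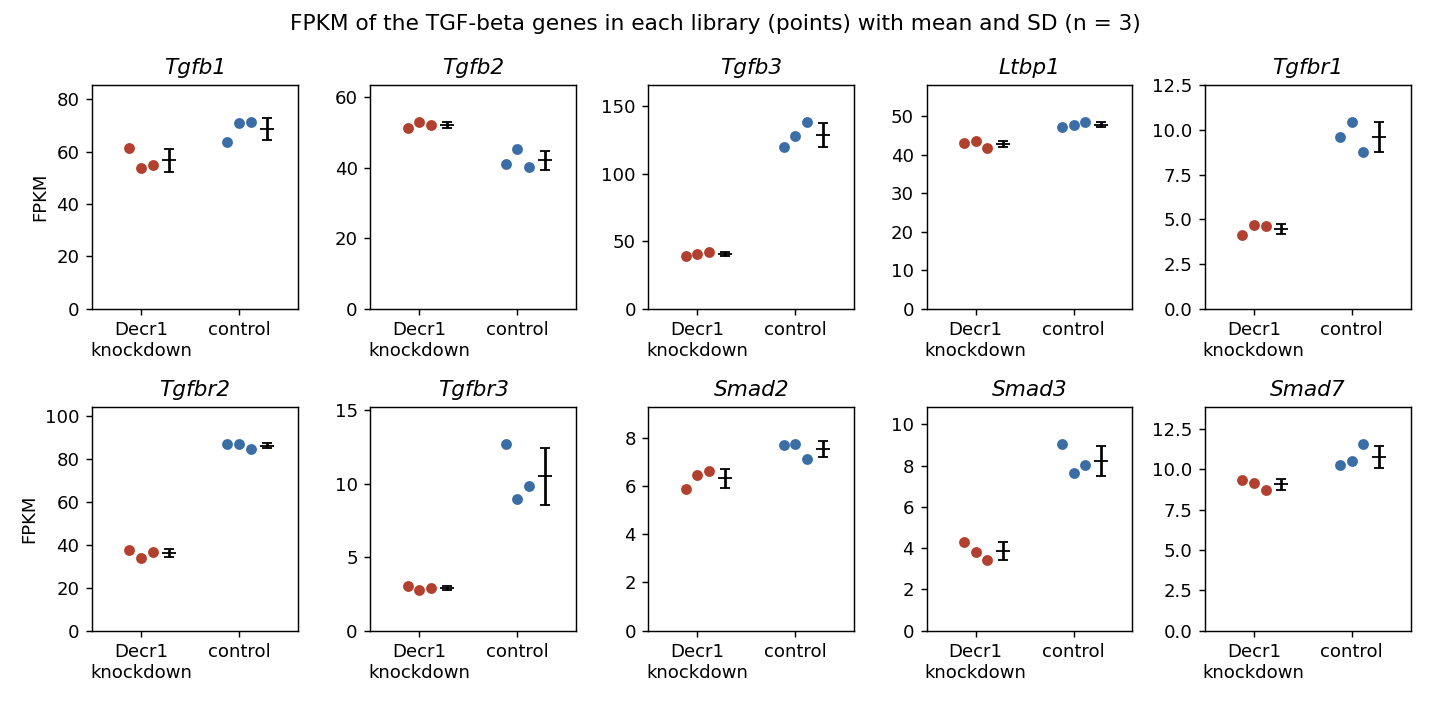
FPKM of the 10 genes (vertical axis of each panel, from 0) in each knockdown library (left, red) and each control library (right, blue), with the mean and SD of 3 libraries beside the points. For 9 genes every knockdown point lies below every control point. For Tgfb2 every knockdown point lies above, at 51.2 to 52.8 FPKM against 40.2 to 45.2 FPKM.

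**Figure D2:**
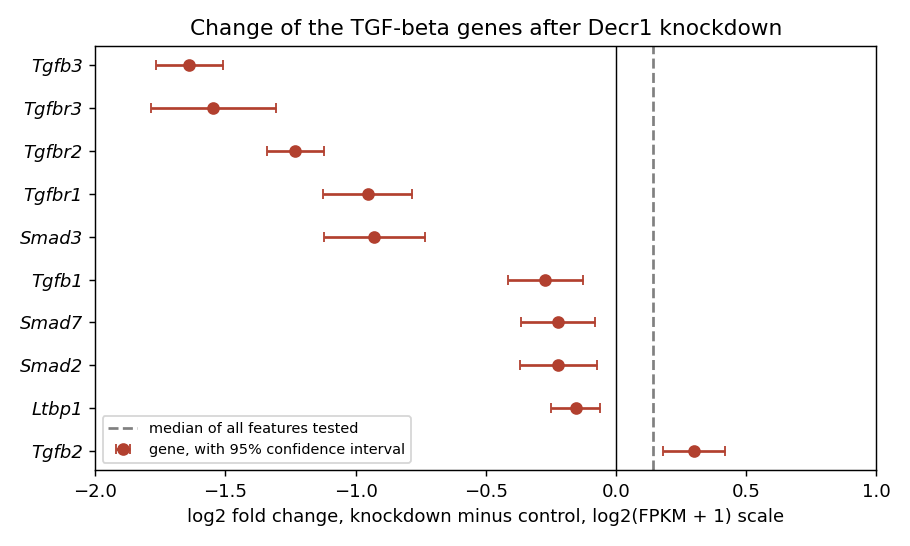
Log2 fold change of each gene (horizontal axis, knockdown minus control in log2(FPKM + 1) units) with its 95% confidence interval from limma. The dashed line marks the median of all features tested, 0.14. Tgfb3 and Tgfbr3 lie farthest to the left, at -1.64 and -1.55, and Tgfb2 alone lies to the right of 0, at 0.30.

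Several motifs were searched before the gene starts annotated by RefSeq, and the GC box was split along gene role. Whether such a split in 10 genes goes beyond chance was not tested. All 10 genes were matched to the RefSeq promoter table of the rat GRCr8 assembly, with 11 windows because Smad2 has 2. The 250 bases before each start were searched on both strands. The GC box GGGCGG, which Sp-family factors bind, was in the window of each of the 6 receptor and SMAD genes and in none of the 4 ligand and latency genes. Of all 33469 promoter windows, 30.5% held it. Genes that fell stood on both sides of this division. The cyclic AMP response element TGACGTCA was found before Ltbp1 only, and 1.59% of all windows held it. The short SMAD box CAGAC was also found only before Ltbp1, beside that element and not overlapping it, and 42.9% of all windows held it. The palindromic SMAD box GTCTAGAC (0.173% of all windows), the AP-1 site TGANTCA (6.34%), the TATA box TATAAA (12.9%) and the interferon-stimulated response element (3.41%) had no match in the 11 windows. A match is a run of letters, not a bound site. The lack of a match covers only these 250 bases before annotated starts, and sites elsewhere or at other starts were not searched. The windows of 5 genes are printed 5′ to 3′ on the strand of the gene, with GGGCGG, TGACGTCA and CAGAC or their reverse complements in capitals. They show the ligand gene that rose, the one that fell most, the latency gene with its paired motifs, the receptor gene with the most GC boxes and the inhibitory SMAD.
Tgfb2, GRCr8 chr13:100792686-100792935, minus strand: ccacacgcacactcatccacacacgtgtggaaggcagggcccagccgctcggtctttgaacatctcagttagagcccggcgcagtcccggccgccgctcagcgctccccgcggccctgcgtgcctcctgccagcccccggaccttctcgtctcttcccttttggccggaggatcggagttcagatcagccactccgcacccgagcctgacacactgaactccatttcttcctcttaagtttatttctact
Tgfb3, GRCr8 chr6:111456947-111457196, minus strand: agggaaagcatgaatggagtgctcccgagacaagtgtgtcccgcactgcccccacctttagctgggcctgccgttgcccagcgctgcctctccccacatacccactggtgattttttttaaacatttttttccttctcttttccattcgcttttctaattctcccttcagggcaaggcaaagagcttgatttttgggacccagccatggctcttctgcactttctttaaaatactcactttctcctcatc
Ltbp1, GRCr8 chr6:26177302-26177551, minus strand: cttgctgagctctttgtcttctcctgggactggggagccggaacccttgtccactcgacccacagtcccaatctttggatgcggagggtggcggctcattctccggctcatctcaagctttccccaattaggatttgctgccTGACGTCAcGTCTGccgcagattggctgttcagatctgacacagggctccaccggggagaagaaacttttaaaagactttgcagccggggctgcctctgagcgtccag
Tgfbr1, GRCr8 chr5:66449148-66449397, plus strand: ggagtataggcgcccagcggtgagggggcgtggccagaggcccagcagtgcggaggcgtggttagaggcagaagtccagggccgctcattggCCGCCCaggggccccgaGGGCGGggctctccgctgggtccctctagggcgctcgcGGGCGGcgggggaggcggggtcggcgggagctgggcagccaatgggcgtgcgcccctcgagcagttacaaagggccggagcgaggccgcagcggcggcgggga
Smad7, GRCr8 chr18:71263258-71263507, plus strand: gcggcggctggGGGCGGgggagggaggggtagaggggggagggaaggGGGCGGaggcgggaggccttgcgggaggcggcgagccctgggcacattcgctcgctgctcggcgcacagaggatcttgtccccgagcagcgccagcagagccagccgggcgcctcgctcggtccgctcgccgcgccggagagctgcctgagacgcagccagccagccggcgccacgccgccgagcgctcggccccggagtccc

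Among the ligands, Tgfb3 fell steeply, Tgfb1 fell slightly and Tgfb2 rose slightly. Tgfb3, the isoform best known for its part in palate closure, stood at 38.8, 40.7 and 42.1 FPKM in the knockdown libraries, against 119.9, 127.6 and 138.1 FPKM in the controls. These values rest on 5000, 5244 and 5123 fragments in the knockdown and on 16524, 17427 and 19081 in the controls. The highest knockdown library lay far below the lowest control library. The log2 fold change was -1.64 (SE 0.06, limma, Benjamini-Hochberg adjusted p = 3.42e-09), and 353 of the 11975 features tested had a more negative one. Its window before the start, printed above, held none of the motifs searched.

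Tgfb1, the isoform most studied in fibrosis and immune control, stood at 61.5, 53.6 and 54.7 FPKM in the knockdown libraries, against 63.6, 70.7 and 71.2 FPKM in the controls. The groups were separate but close, since knockdown replicate 1 lay just under control replicate 1. Its log2 fold change was -0.27 (SE 0.06, limma, Benjamini-Hochberg adjusted p = 0.00292). Tgfb2, an isoform needed for heart valve and septum formation in mice, stood at 51.2, 52.8 and 51.9 FPKM in the knockdown libraries, against 40.9, 45.2 and 40.2 FPKM in the controls. All 3 knockdown libraries were above all 3 controls, and the knockdown values lay closer together, with an SD of 0.806 FPKM beside 2.69 FPKM. The log2 fold change was 0.30 (SE 0.05, limma, Benjamini-Hochberg adjusted p = 0.0004). The median of all features tested was itself 0.14, and after median-ratio scaling of the libraries, which set that median to 0.00, the value for Tgfb2 was 0.14 (adjusted p = 0.0316, with 0.000108 to 0.0316 over the 12 alternatives).

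Because the ligands moved unequally, their make-up differed between the groups. Shares of the summed FPKM of the 3 ligand genes are taken within a library and do not depend on how libraries are scaled. Tgfb3 made up 25.6%, 27.6% and 28.3% of that sum in the knockdown libraries, against 53.4%, 52.4% and 55.4% in the controls. It was the largest of the ligand shares in each control library and the smallest in each knockdown library. Tgfb2 made up 34.9% ± 1.05 in the knockdown and 17.6% ± 1.33 in controls (SD, n = 3 each), and Tgfb1 37.9% ± 2.29 in the knockdown and 28.6% ± 0.372 in controls. The ratio of Tgfb3 to Tgfb2 was 0.780 ± 0.0282 in the knockdown and 3.06 ± 0.328 in controls (SD, n = 3 each). The ligand sum itself was 149 ± 2.20 FPKM in the knockdown and 239 ± 13.0 FPKM in controls. For the share of each ligand, for this ratio and for the sum, the exact permutation test (two-sided) gave p = 0.1, its smallest possible value at n = 3 against 3.

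**Figure D3:**
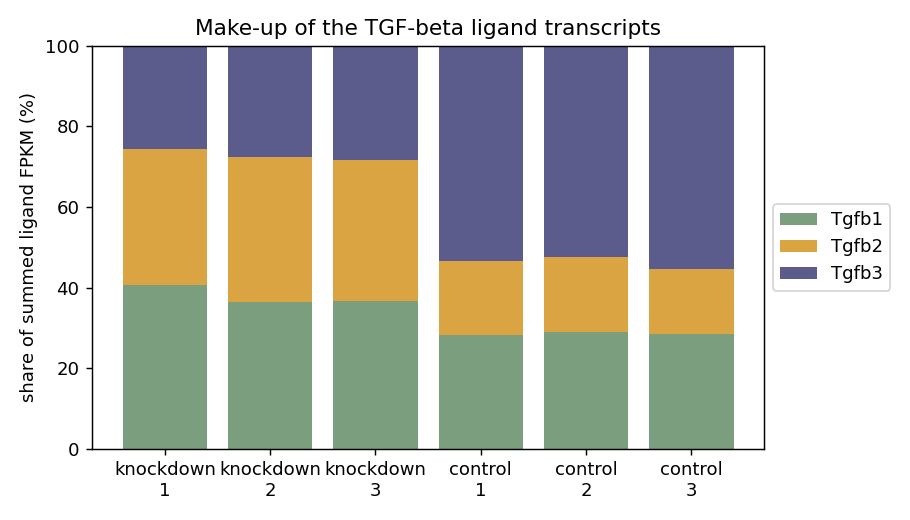
Share of the summed FPKM of the 3 ligand genes (vertical axis, percent) held by Tgfb1, Tgfb2 and Tgfb3 in each library, with the knockdown libraries on the left and the controls on the right. Tgfb3 fills 25.6% to 28.3% of each knockdown bar and 52.4% to 55.4% of each control bar.

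Ltbp1, which encodes a latent TGF-beta binding protein, changed least of the 10 genes on the log2 scale as deposited, while after either rescaling Tgfb2 changed less. It stood at 43.1, 43.4 and 41.8 FPKM in the knockdown libraries, against 47.1, 47.7 and 48.4 FPKM in the controls. Replicates lay within a few FPKM of each other in both groups, so that a fall to 89.6% of the control mean was larger than the spread. Its log2 fold change was -0.15 (SE 0.04, limma, Benjamini-Hochberg adjusted p = 0.00647). After median-ratio scaling it was -0.32. The other latency genes differed much more from their controls than Ltbp1. Ltbp2 fell to 9.34 ± 0.35 FPKM in the knockdown, against 111 ± 8.13 FPKM in controls, and its log2 fold change was -3.43 (SE 0.06, limma, Benjamini-Hochberg adjusted p = 5.53e-11). Ltbp3 had a log2 fold change of -0.87 and Ltbp4 one of -2.16, and both fell.

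All 3 receptor genes fell, and their summed FPKM was 43.5 ± 1.87 in the knockdown and 106 ± 2.90 in controls (SD, n = 3 each). Tgfbr2 encodes the type II receptor, which binds the ligand and activates its partner. It stood at 37.7, 34.0 and 36.7 FPKM in the knockdown libraries, against 86.8, 86.8 and 84.7 FPKM in the controls. The control libraries agreed closely, with an SD of 1.23 FPKM, and no knockdown library exceeded 37.7 FPKM. The log2 fold change was -1.23 (SE 0.05, limma, Benjamini-Hochberg adjusted p = 7.53e-09).

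Tgfbr1 encodes the type I receptor, the kinase that phosphorylates SMAD2 and SMAD3. It stood at 4.14, 4.66 and 4.62 FPKM in the knockdown libraries, against 9.63, 10.4 and 8.77 FPKM in the controls. These levels rest on 890 to 1002 fragments per knockdown library and 2021 to 2377 per control library. The log2 fold change was -0.95 (SE 0.08, limma, Benjamini-Hochberg adjusted p = 1.13e-06). Tgfbr3 encodes betaglycan, a co-receptor that presents TGF-beta2 in particular to the type II receptor. It stood at 3.05, 2.74 and 2.93 FPKM in the knockdown libraries, against 12.7, 8.97 and 9.85 FPKM in the controls. Control replicate 1 was higher than the other two, which gives Tgfbr3 the widest control spread of the 10 genes at 18.5% of the mean, but all controls lay far above the knockdown. Its log2 fold change was -1.55 (SE 0.11, limma, Benjamini-Hochberg adjusted p = 4.12e-07), and -1.41 without control replicate 1.

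The balance between the receptors moved less than that between the ligands. Tgfbr2 made up 83.0% ± 0.938 of the receptor sum in the knockdown and 81.1% ± 1.33 in controls (SD, n = 3 each). These shares did not overlap, by a narrow margin (two-sided exact permutation p = 0.1, the smallest possible). The ratio of Tgfbr2 to Tgfbr1 was 8.11 ± 0.920 in the knockdown and 8.998 ± 0.667 in controls, with overlapping libraries (two-sided exact permutation p = 0.3). Tgfbr3 held 6.67% ± 0.0965 of the receptor sum in the knockdown and 9.87% ± 1.62 in controls, without overlap (two-sided exact permutation p = 0.1, the smallest possible).

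The SMAD genes fell by different amounts. SMAD2 and SMAD3 carry the signal from the type I receptor, and SMAD7 inhibits that receptor and is itself induced by the pathway. Smad3 stood at 4.32, 3.81 and 3.44 FPKM in the knockdown libraries, against 9.04, 7.65 and 8.01 FPKM in the controls. The groups lay well apart, although Smad3 had the widest knockdown spread of the 10 genes at 11.5% of the mean. The log2 fold change was -0.93 (SE 0.09, limma, Benjamini-Hochberg adjusted p = 3.62e-06). Smad2 stood at 5.88, 6.46 and 6.60 FPKM in the knockdown libraries, against 7.68, 7.74 and 7.14 FPKM in the controls. The gap between the groups was small, and knockdown replicate 3 lay just under control replicate 3. Its log2 fold change was -0.22 (SE 0.07, limma, Benjamini-Hochberg adjusted p = 0.0111). Without knockdown replicate 1 it was -0.18 (adjusted p = 0.0473), with the adjusted p between 0.000524 and 0.0473 over the 12 alternatives.

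Smad7 stood at 9.35, 9.18 and 8.68 FPKM in the knockdown libraries, against 10.3, 10.5 and 11.6 FPKM in the controls. It fell to 84.2% of the control mean, with a log2 fold change of -0.22 (SE 0.06, limma, Benjamini-Hochberg adjusted p = 0.00807). Within each library the SMAD genes can be set against each other, free of library scaling. The ratio of Smad7 to Smad3 was 2.17, 2.41 and 2.53 in the knockdown libraries, against 1.14, 1.37 and 1.44 in the controls. The ratio of Smad2 to Smad3 was 1.66 ± 0.281 in the knockdown and 0.918 ± 0.0846 in controls (SD, n = 3 each). Neither ratio overlapped between the groups, and for each the two-sided exact permutation test gave p = 0.1, the smallest possible. After median-ratio scaling the log2 fold changes of Tgfb1, Smad2 and Smad7 were -0.43, -0.36 and -0.37.

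The order of levels changed at the top. In the knockdown it ran from Tgfb1 at a mean of 56.6 FPKM through Tgfb2 at 52.0, Ltbp1 at 42.8, Tgfb3 at 40.5 and Tgfbr2 at 36.1 FPKM to Smad7 at 9.07 and the rest below. In the controls it ran from Tgfb3 at 129 FPKM through Tgfbr2 at 86.1, Tgfb1 at 68.5, Ltbp1 at 47.7 and Tgfb2 at 42.1 FPKM to Smad7 at 10.8 FPKM. Among neighbours in the knockdown order, the libraries of Ltbp1 and Tgfb3 overlapped, as did those of Tgfbr1 and Smad3. In the controls, neighbours overlapped throughout the lower part, from Smad7 through Tgfbr3, Tgfbr1 and Smad3 to Smad2.

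Markers of the other cells of a heart preparation moved in the same libraries. The labelled heart muscle cells were present in both groups, with cardiac troponin T, Tnnt2, at 1892 ± 37.3 FPKM in the knockdown and 1604 ± 57.3 FPKM in controls, and cardiac actin, Actc1, at 4338 ± 115 FPKM in the knockdown and 2963 ± 69.7 FPKM in controls (SD, n = 3 each). The myosin gene Myh6 fell to 266 ± 15.2 FPKM in the knockdown, against 675 ± 29.9 FPKM in controls. Of 12 cardiomyocyte markers 4 rose and 7 fell, where 48.4% of all features tested rose and 32.4% fell. The falls of Ttn and Pln were small, at log2 fold changes of -0.20 and -0.13. Both calls were lost when control replicate 1, control replicate 2, knockdown replicate 1 or knockdown replicate 2 was left out. That of Pln was also lost with the replicate block and with the filter of any value above 0. Tnnt2 was among the 4 that rose, at a log2 fold change of 0.24, which was 0.07 and not called after median-ratio scaling. The 7 that fell included Myl2, at 45.0 FPKM in the knockdown and 721 FPKM in controls, and Myh7, at 35.3 and 255 FPKM. The 12 markers summed to 11806 to 12692 FPKM in the knockdown and 18113 to 18740 FPKM in the controls. Of these sums Nppa held 5010 FPKM in the knockdown and 11702 FPKM in controls. All 10 fibroblast markers fell, their median log2 fold change being -3.20, with a summed level of 88.8 to 95.6 FPKM in the knockdown libraries, against 651.0 to 691.9 FPKM in the controls. Pdgfra, a receptor gene that marks fibroblasts, was at 1.22 ± 0.270 FPKM in the knockdown and 19.9 ± 3.51 FPKM in controls, and the matrix proteoglycan gene Dcn at 13.7 ± 1.37 FPKM in the knockdown and 131 ± 13.2 FPKM in controls. The 6 epicardial and mesothelial markers summed to 4.33 to 4.61 FPKM in the knockdown, against 159.6 to 175.1 FPKM in the controls, and all 5 tested fell. Of 7 smooth muscle and pericyte markers 2 rose and 5 fell, and their sum was 254.2 to 277.0 FPKM in the knockdown and 147.9 to 159.1 FPKM in the controls. Most of that sum was Cnn1, at 207 FPKM in the knockdown and 88.0 FPKM in controls. The other smooth muscle or pericyte marker that rose was Cspg4, at 25.5 FPKM in the knockdown and 7.61 FPKM in controls. The endothelial markers summed to 12.9 to 14.2 FPKM in the knockdown and 13.8 to 15.1 FPKM in the controls, and of 5 tested 1 rose, 3 fell and Cdh5 did not pass. The endothelial gene that rose was Kdr, at 6.43 FPKM in the knockdown and 2.85 FPKM in controls. Pecam1 was under the filter and not tested, at 0.286 ± 0.0396 FPKM in the knockdown and 1.05 ± 0.142 FPKM in controls. The macrophage and leukocyte markers summed to 121.9 to 137.8 FPKM in the knockdown and 145.3 to 163.2 FPKM in the controls, of which Cd68 held 86.3 FPKM in the knockdown and 90.6 FPKM in controls. Of 6 of these tested, 2 fell, Csf1r (log2 fold change -0.87) and C1qa (log2 fold change -1.67), and 4 did not pass. Ptprc, the common leukocyte antigen, did not pass (5.38 ± 0.501 FPKM in the knockdown, 6.07 ± 0.512 FPKM in controls, log2 fold change -0.15), but was called lower at -0.29 after median-ratio scaling, at -0.25 after quantile normalization and at -0.21 without knockdown replicate 3. The Schwann and neuronal markers summed to 9.11 to 9.83 FPKM in the knockdown and 42.6 to 45.6 FPKM in the controls, and both that were tested fell. No marker was at 0 in all 6 libraries. The part of these cells in the changes of the TGF-beta genes was not tested. In bulk samples fewer cells of a type and less RNA per cell cannot be told apart.

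Genes that store and activate the ligands mostly fell. Of 17, 16 were tested, of which 11 fell and 3 rose, where 32.4% of all features tested fell and 48.4% rose. The median log2 fold change was -0.86 beside 0.14 for all features. Fbn1, which encodes the microfibril protein fibrillin-1 on which latent complexes are held, fell to 16.9 ± 0.716 FPKM in the knockdown, against 207 ± 4.69 FPKM in controls (log2 fold change -3.53, SE 0.05). Among the matrix metalloproteinase genes of this list, whose products can release latent ligand, Mmp2 and Mmp14 fell and Mmp9 rose. Mmp2 fell to 104 ± 4.63 FPKM in the knockdown, against 659 ± 18.9 FPKM in controls. Mmp14 fell to 89.0 ± 2.75 FPKM in the knockdown, against 357 ± 1.71 FPKM in controls. Thbs1, which encodes the activator thrombospondin-1, fell to 173 ± 9.50 FPKM in the knockdown, against 689 ± 33.6 FPKM in controls. The genes that rose were Furin, the protease that cleaves the propeptide, at a log2 fold change of 0.52, Itgav, an integrin chain that binds the latent complex, at 0.43, and Mmp9 at 1.12. The integrin genes Itgb3 and Itgb8 did not pass, though Itgb3 was called lower after both rescalings, without control replicate 2 and without knockdown replicate 1 (-0.31 to -0.24). Thbs1, Furin, Itgav, Mmp9 and the integrin genes were chosen for mention with their values known. The fibroblast markers stood at a median of -3.20 beside this group, and a link was not tested.

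Of 14 other receptors and adaptors 10 rose and 3 fell, where 48.4% of all features tested rose and 32.4% fell. Their median log2 fold change was 0.42, beside 0.14 for all features. After median-ratio scaling 8 of the 14 rose, where 39.9% of all features did. Dab2 did not pass, except without control replicate 2 (0.17). The call of Tab1 as lower was lost with the filter of any value above 0, without any 1 control library and without knockdown replicate 2 or 3 (limma, Benjamini-Hochberg adjusted p = 0.0515 to 0.106). Zfyve9 and Tab2 were no longer called higher after either rescaling, and Zfyve9 also not without control replicate 3 or knockdown replicate 1. Acvr1, a type I receptor of the bone morphogenetic protein (BMP) branch, rose to 22.8 ± 0.610 FPKM in the knockdown, against 9.15 ± 0.323 FPKM in controls. Cd109, a membrane protein that binds TGF-beta and dampens its signal, rose to 11.1 ± 0.383 FPKM in the knockdown, against 2.81 ± 0.219 FPKM in controls. Map3k7, which encodes the kinase TAK1 of the SMAD-independent branch, rose to 28.5 ± 1.15 FPKM in the knockdown, against 13.1 ± 0.300 FPKM in controls. Acvrl1, the type I receptor ALK1 of endothelial cells, fell to 1.80 ± 0.0922 FPKM in the knockdown, against 8.97 ± 0.393 FPKM in controls. The co-receptor endoglin, Eng, picked out after its values were seen, fell to 62.7 ± 3.03 FPKM in the knockdown, against 156 ± 16.9 FPKM in controls.

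Among the other SMAD genes, Smad9 changed most on the log2 scale. Of 5, Smad4, Smad5 and Smad6 fell, Smad9 rose and Smad1 did not pass, where 32.4% of all features tested fell and 48.4% rose. Smad9, a SMAD of the BMP branch, rose to 4.30 ± 0.0795 FPKM in the knockdown, against 2.00 ± 0.142 FPKM in controls (log2 fold change 0.82, SE 0.07). Smad4, the partner shared by both branches, stood at 22.4 ± 0.447 FPKM in the knockdown and 24.8 ± 1.52 FPKM in controls (log2 fold change -0.14, SE 0.06, limma, Benjamini-Hochberg adjusted p = 0.0361). The call for Smad4 was lost without control replicate 1, where the value was -0.09, without any 1 of the knockdown libraries, where it was -0.15 to -0.13, and with the replicate block (adjusted p = 0.0567 to 0.144 over these). Smad6, the inhibitory SMAD of the BMP branch, had a log2 fold change of -0.40 and Smad5 one of -0.25. Inhibitors, ubiquitin ligases and phosphatases of the SMADs went both ways, with 7 of 16 higher, 5 lower and 4 not past the threshold, near the 48.4% higher and 32.4% lower of all features tested. Ppm1a, a phosphatase that acts on SMAD2 and SMAD3, rose to 24.8 ± 1.05 FPKM in the knockdown, against 12.5 ± 0.518 FPKM in controls. The ligase gene Rnf111, whose product degrades SMAD7 and SKI proteins, rose to 18.4 ± 1.17 FPKM in the knockdown, against 9.77 ± 0.442 FPKM in controls. Usp15, a deubiquitinase of the receptor and SMADs, rose to 14.9 ± 0.233 FPKM in the knockdown, against 8.67 ± 0.252 FPKM in controls. Pmepa1, an inhibitor that the pathway itself induces, fell to 9.06 ± 0.841 FPKM in the knockdown, against 54.6 ± 5.74 FPKM in controls, with a log2 fold change of -2.47 (SE 0.08).

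Genes commonly induced by TGF-beta did not move as one. Of 25 on the list, 23 were tested, of which 11 fell, 9 rose and 3 did not pass, where 32.4% of all features tested fell and 48.4% rose. After median-ratio scaling 13 fell and 9 rose, where 39.9% of all features fell and 39.9% rose. After quantile normalization 11 fell and 10 rose, where 38.1% of all features fell and 41.7% rose. The median log2 fold change of the 23 was -0.08, beside 0.14 for all features. This median moved with the processing, to -0.25 after median-ratio scaling, -0.23 over all features above 0 and -0.58 over those with a mean of at least 5 FPKM. It was -0.05 after quantile normalization and ran from -0.14 to -0.04 with 1 library left out. The collagen genes fell, Col1a1 to 263 ± 20.4 FPKM in the knockdown against 3428 ± 226 FPKM in controls, and Col1a2 to 178 ± 11.997 FPKM in the knockdown against 1986 ± 129 FPKM in controls. Both are also made in large amounts by fibroblasts, whose markers fell in these libraries, and a link between these falls was not tested. In the other direction Tgfbi, which encodes a secreted matrix protein, rose to 44.3 ± 1.21 FPKM in the knockdown, against 4.76 ± 0.169 FPKM in controls (log2 fold change 2.97, SE 0.05). Cdkn1a, the gene of the cell cycle inhibitor p21 and also a p53 target, rose to 512 ± 10.8 FPKM in the knockdown, against 62.2 ± 2.13 FPKM in controls (log2 fold change 3.02, SE 0.04). Acta2 and Ccn2 were chosen for mention with their values known. Acta2, the smooth muscle actin gene, rose to 3481 ± 214 FPKM in the knockdown, against 1672 ± 83.3 FPKM in controls, and Ccn2, which encodes connective tissue growth factor, fell to 542 ± 24.2 FPKM in the knockdown, against 731 ± 40.3 FPKM in controls.

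**Figure D4:**
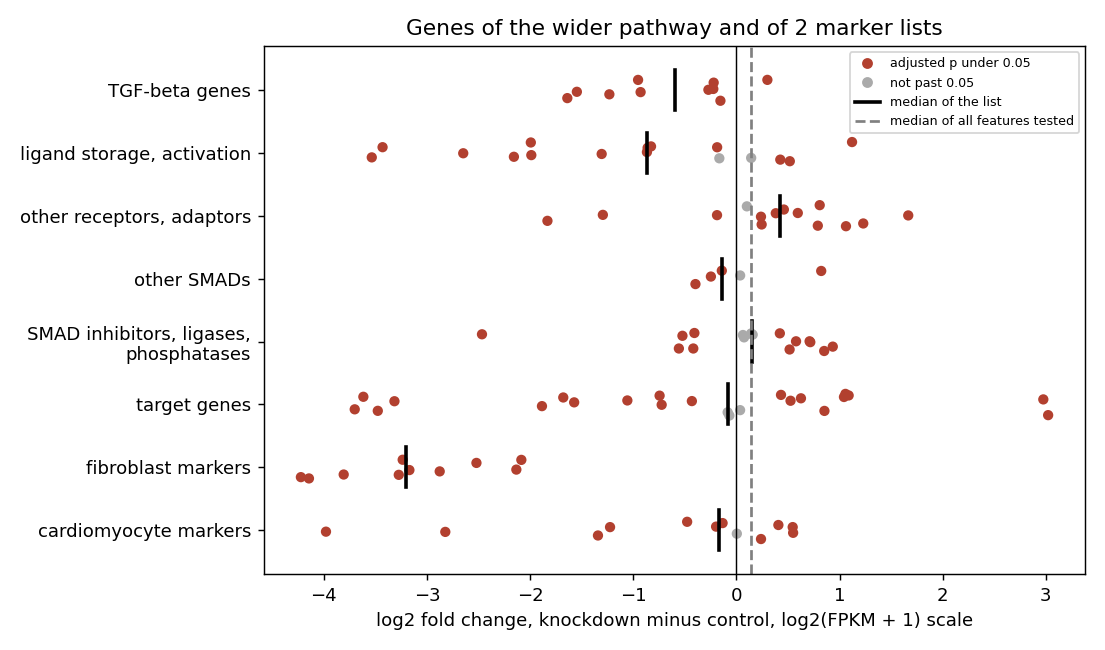
Log2 fold change (horizontal axis, knockdown minus control in log2(FPKM + 1) units) of each tested gene of 6 pathway lists and 2 marker lists, red where the adjusted p was under 0.05 and grey where it was not. Vertical offsets within a row only separate the points, black bars are list medians and the dashed line is the median of all features tested. The fibroblast markers lie at a median of -3.20 and the 10 TGF-beta genes at -0.60.

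The features whose 6 values lay nearest to those of each ligand, by Euclidean distance on the log2(FPKM + 1) scale over the 6 libraries, were looked up as a description. Nearest to Tgfb3 were Ptgis, the prostacyclin synthase gene, at a distance of 0.385, P4ha1, a collagen prolyl hydroxylase gene, at 0.444, and Emp1 at 0.461. Only 5 of the other tested features lay within 0.5 of Tgfb3, compared with 59 for Tgfb1 and 139 for Tgfb2. Nearest to Tgfb1 were Impdh2 at a distance of 0.108, Lrp10 at 0.209 and Nfe2l1 at 0.211. Nearest to Tgfb2 were Pdcd6ip at a distance of 0.163, Higd1a at 0.164 and Cd48 at 0.171. With 2 groups, such nearness mostly reflects a like level and a like difference between the groups.

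The direction and the call of each of the 10 genes were the same under each of the 12 other ways of processing the table. Both rescalings moved all 10 values downward.

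**Figure D5:**
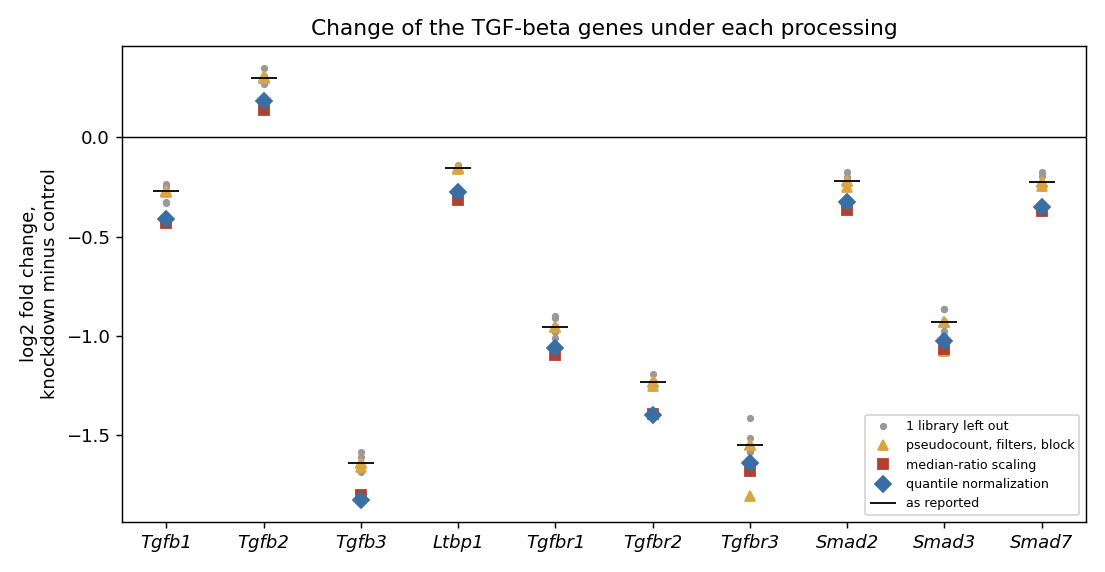
Log2 fold change of each gene (vertical axis, knockdown minus control) as reported (black bar), with 1 library left out (grey), with other pseudocounts, filters or a replicate block (orange), after median-ratio scaling (red) and after quantile normalization (blue). No gene crosses 0, and Tgfb2 runs from 0.14 to 0.35.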

How the data were processed

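RNA was extracted with TRIzol and sequenced from 6 libraries of cultured neonatal rat ventricular myocytes, per the labels' protocols. Per the submitters' processing notes, fastp, HISAT2 and HTSeq were used. The sources used here do not give their versions, the build, the annotation or the handling of strand. Per the file headers, the deposited values are FPKM, with a column per library. Whole fragments and depths were recovered from the FPKM, since values are whole multiples of 1 step per feature, within 1e-05 fragments or wider for large values, for 22427 of 22634 features above 0. By the RefSeq annotation no other protein-coding gene overlaps the 10 genes, while Tgfb2, Ltbp1, Tgfbr3 and Smad2 overlap non-coding genes or a pseudogene, whose reads cannot be told apart without strand.

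Features averaging 1 FPKM or more, 11975 in all, were fitted as log2(FPKM + 1) with limma 3.58.1 (trend) in R 4.3.3, with no covariate and Benjamini-Hochberg adjustment over all features, at 0.05. No count model was used. On data simulated for this comparison with 11975 features, the fit recovered 58% of 1.2-fold rises, 100% of 1.5-fold rises and 100% of falls to 0.5, and called 9 unchanged features. Only 50 features were changed at each fold, far fewer than were called in the real libraries. The spread and the gene length were assumed and the same for all features, so these rates need not hold for the real data. Plots used Python 3.11.15 and matplotlib 3.10.9. Members and lists were chosen with earlier results of these data known. The rule for named genes took the 10, Decr1, the 4 smallest adjusted p of each other pathway list, 7 marker genes and the 3 features nearest each ligand. Other list genes in the text were chosen after their values were seen. Alternatives were another pseudocount, 2 filters, 2 rescalings, a replicate block and leaving out each library. One gene of the target list is not reported here by name.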

Additional observations from a re-analysis of the deposited data

How the results depend on the processing

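All 10 TGF-beta genes kept their direction and their call, 9 lower and 1 higher, under the other pseudocount, both filters, both rescalings, the replicate block and the loss of each library. Decr1 did too. Without 1 library the features called ranged from 5572 to 5657 higher and from 3703 to 3807 lower, the Tgfb3 share differed by -27.2 to -25.7 percentage points (knockdown minus control), the Tgfb2 share by 16.5 to 17.8, the Tgfb1 share by 7.97 to 10.0, and the ratio of Smad7 to Smad3 by 0.960 to 1.15. Median-ratio scaling gave 4777 features higher and 4773 lower, quantile normalization 4988 and 4567. Over all 12 alternatives Tgfb2 ran from 0.14 to 0.35 and Ltbp1 from -0.32 to -0.14 on the log2 scale, with the ends 0.14 and -0.32 from median-ratio scaling and the others from leaving out 1 library. Lower macrophage and leukocyte markers numbered 2 as deposited and 6 after either rescaling. With the replicate block 5750 features were higher and 3824 lower. Libraries with the same number did not clearly deviate together (r = -0.00267, 0.0678 and -0.0713), nor did each correlate best with its own number. These values gave no sign of pairing by number, but 3 libraries per group are too few to exclude it. Depth limits little here, since the 10 genes had at least 716 fragments in each library.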
